A study of Mus musculus with 2 samples.

Results

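The 10 imprinted growth genes Igf2, H19, Dlk1, Meg3, Peg3, Plagl1, Ndn, Snrpn, Mest and Peg10 were followed across the cell classes of the embryonic mouse eye. They were chosen by name, as the rows of these genes in both count matrices. All 10 were found in each matrix, among 32285 genes. The study compared peripheral retina from pigmented and albino mouse embryos at the E13.5 embryonic stage. Each group was 1 single-cell library of cells from the optic cups of 3 pooled embryos. In both libraries the retina carried α-Cre, a Cre driven by a Pax6 retinal enhancer, with a TdTomato reporter, and cells were sorted for TdTomato after papain dissociation. The library titled pigmented is labelled as strain Tyrc2j, although that symbol usually denotes a tyrosinase mutation that causes albinism. The library titled albino is labelled Swizz ICR. The titles were followed, so pigmentation here means the title. Strain, the sexes of the pooled embryos and the library itself cannot be told apart from pigmentation. No library had a replicate, so no difference below has a replicate check or a p-value, and every interval is a 95% interval that covers counting error only.

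Imprinted genes are transcribed mainly from the chromosome inherited from one parent. Igf2, Dlk1, Peg3, Plagl1, Ndn, Snrpn, Mest and Peg10 are known for expression from the paternal copy, and H19 and Meg3, both long non-coding RNAs, for expression from the maternal copy. Igf2 encodes a fetal growth factor that signals through the Igf1 and insulin receptors, and Igf2r, a receptor without a growth signal, removes it. The ciliary margin is the rim of the optic cup. It forms the ciliary body and iris and is known as a source of retinal neurons in the embryo. The counts do not separate the parental copies, so every level below is the sum over both.

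Several members are neighbours in the genome. In GRCm38 with GENCODE M21 annotation, Igf2 spans chr7:142650766-142666816 and H19 chr7:142575529-142578143, both on the minus strand, with 72623 bases between them. Dlk1 spans chr12:109452823-109463336 and Meg3 chr12:109541001-109571726, both on the plus strand, with 77665 bases between them. Ndn at chr7:62346569-62350262 and Snrpn at chr7:59982495-60140219 lie 2206350 bases apart on opposite strands. Peg3 lies at chr7:6703892-6730431 on the minus strand, Plagl1 at chr10:13060504-13131694, Mest at chr6:30723547-30748465 and Peg10 at chr6:4747306-4760517, all 3 of the last on the plus strand. Where another gene in the matrices overlaps a member, its count was small beside the member's. Other overlapping genes were not in the matrices and so had no count. Among these was Gm49394, a protein-coding gene that shares 3596 bases with Igf2 on the same strand. Copg2 overlaps Mest by 912 bases on the opposite strand and had 3297 UMIs against 28160 for Mest. Igf2os overlaps Igf2 by 98 bases and had 77 UMIs against 6333 for Igf2. Gm38393 shares 589 bases with Snrpn on the same strand and had 597 UMIs against 8037 for Snrpn. Snurf shares 216 bases with Snrpn on that strand and had 0 UMIs. Whether members lost UMIs at shared bases was not tested.

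Start-site windows are shown for Igf2 and Plagl1, whose levels were called in opposite directions between ciliary margin and progenitors, and for Peg3, which holds a motif linked to Plagl1. For Igf2, which has 4 windows, the one with the most CpG is shown. Each runs from 250 bases before a RefSeq start to 50 after it, on the gene's strand in GRCm38.p6, with CpG dinucleotides, where imprinting methylation is placed, in capitals. Of the 10 members, 8 matched windows (17 in all), and H19 and Peg10 are named only.
Igf2, chr7:142658755-142659054, minus strand: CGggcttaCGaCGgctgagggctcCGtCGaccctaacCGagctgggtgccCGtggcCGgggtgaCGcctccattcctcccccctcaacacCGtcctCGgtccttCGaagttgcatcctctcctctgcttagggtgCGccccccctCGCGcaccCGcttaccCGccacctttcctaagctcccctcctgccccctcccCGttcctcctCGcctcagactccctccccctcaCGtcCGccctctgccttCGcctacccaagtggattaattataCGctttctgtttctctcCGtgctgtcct
Plagl1, chr10:13090582-13090881, plus strand: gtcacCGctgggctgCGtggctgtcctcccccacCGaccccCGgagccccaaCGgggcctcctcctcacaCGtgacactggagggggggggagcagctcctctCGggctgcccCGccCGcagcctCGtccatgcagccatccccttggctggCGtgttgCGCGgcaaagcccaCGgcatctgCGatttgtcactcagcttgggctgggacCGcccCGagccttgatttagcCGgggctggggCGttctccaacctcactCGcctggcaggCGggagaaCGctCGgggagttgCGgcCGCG
Peg3, chr7:6730370-6730669, minus strand: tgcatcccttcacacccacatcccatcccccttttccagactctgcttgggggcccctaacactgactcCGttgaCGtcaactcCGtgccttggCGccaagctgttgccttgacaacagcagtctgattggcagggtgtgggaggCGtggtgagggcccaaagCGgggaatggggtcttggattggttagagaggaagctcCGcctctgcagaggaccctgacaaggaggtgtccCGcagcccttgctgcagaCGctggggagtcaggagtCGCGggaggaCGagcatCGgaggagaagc
The Igf2 window held 24 CpG, more than 80.0% of the 32851 windows of that length. The Plagl1 window held 26, more than 83.1% of them, and the Peg3 window 13. The median over all windows was 7, and the Igf2 windows not shown held 2, 14 and 7. Plagl1 encodes a zinc-finger transcription factor known to act on other imprinted genes, and the palindrome GGGGCCCC is known as its binding motif. That motif, which reads alike on both strands, occurred in 354 windows (1.08%), among them the Peg3 window and no other of the 17 member windows. Such a match is a description of these letters only.

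Some members also host microRNAs, whose mature sequences are given from RefSeq because the counts of H19 and Mest say nothing of them. The seed, bases 2 to 8, is in capitals.
miR-675-5p, in an exon of H19, chr7:142577112-142577133, minus strand: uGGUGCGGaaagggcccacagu
miR-675-3p, in the same exon, chr7:142577078-142577099, minus strand: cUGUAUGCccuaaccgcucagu
miR-335-5p, in an intron of Mest, chr6:30741314-30741336, plus strand: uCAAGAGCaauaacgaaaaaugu
The 3 seeds differ. The 3′ libraries count polyadenylated transcripts and did not measure the mature forms.

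After filtering, 5741 cells of the pigmented and 3462 of the albino library remained, with medians of 10342 and 11178.5 UMIs per cell, from 69965728 and 46271969 UMIs in all. The libraries shared 8 cell barcodes, 6 of them among the cells kept. The libraries differed in sex makeup: 96.1% of albino cells and 29.2% of pigmented cells had Xist and no Y-linked UMI, and 46.0% of pigmented and 0% of albino cells had Y-linked UMIs and no Xist. Clustering that left the members out gave 26 clusters, 22 of them named by their leading markers. They formed ciliary margin-like (CMZ-like, 748 pigmented and 339 albino cells), retinal progenitor-like (RPC-like, 2124 and 1108), neurogenic-like (864 and 450), ganglion cell-like (RGC-like, 559 and 688), photoreceptor-like (352 and 182), amacrine or horizontal-like (140 and 75), mesenchyme-like (230 and 134), pigment epithelium-like (45 and 16), surface ectoderm-like (7 and 44) and myeloid-like cells (26 and 29). The 4 unnamed clusters held 11.3% and 11.5% of cells. Of 11 ciliary margin markers measured, 9 were higher in CMZ-like cells than in the other cells in both libraries. Wls was not, and Mal had no UMI there. Levels are CPM, the UMIs of a gene summed over a class and scaled to 1000000 UMIs of that class, and since 3′ counts are not per length, they are compared between classes and not between genes. A member was called higher or lower where the ratio of CPM was at least 1.5 (or at most 1/1.5), its interval excluded 1 and both sides together held at least 20 UMIs.

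**Figure D1:**
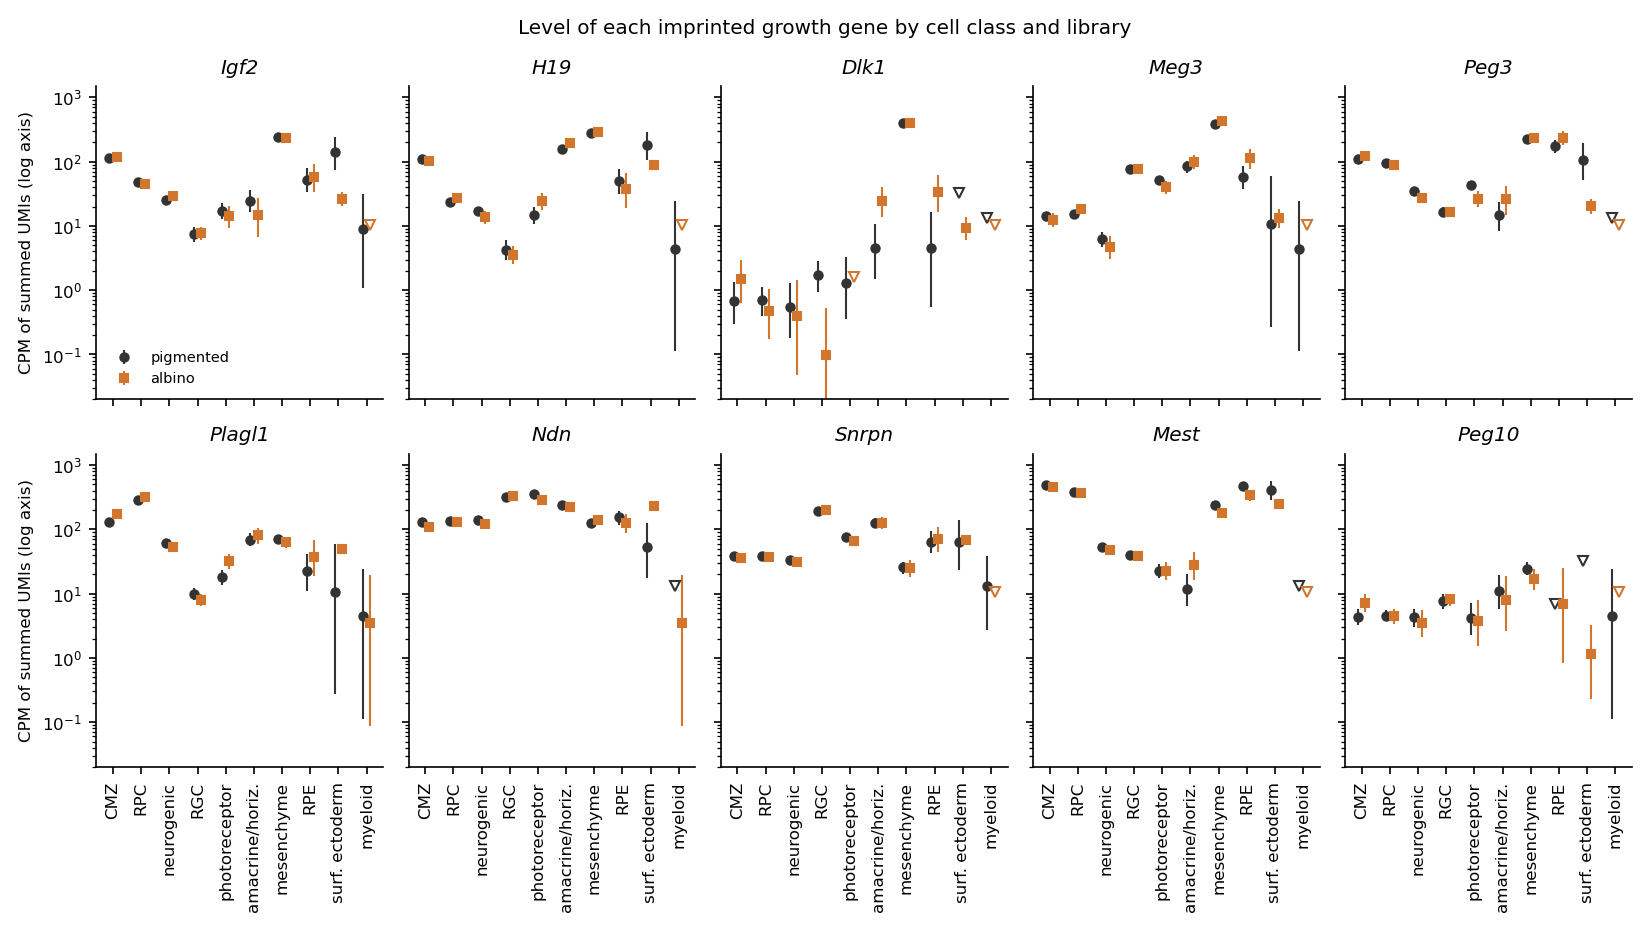
Level of each member in each cell class, as CPM of summed UMIs on a log axis, for the pigmented (circles) and albino (squares) library with exact Poisson 95% intervals; open triangles mark classes with 0 UMIs, drawn at the level of 3 counts. Mesenchyme-like cells held 403 and 396 CPM of Dlk1, which was under 2 CPM in the CMZ-like and RPC-like cells of both libraries, and Plagl1 was highest in RPC-like cells.

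Igf2 and H19 were higher in CMZ-like than in RPC-like cells, and Plagl1 was lower, in both libraries. Igf2 stood at 113.5 CPM in pigmented and 118.6 in albino CMZ-like cells, against 48.9 and 45.4 in RPC-like cells. The ratios were 2.32 (95% interval 2.14 to 2.52) and 2.61 (2.33 to 2.93). The level in each library's margin was above that in either library's progenitors.

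H19, transcribed beside Igf2, had the largest ratio of the members tested in both libraries. It stood at 110.8 and 104.0 CPM in CMZ-like cells and at 23.6 and 26.7 in RPC-like cells. These are ratios of 4.69 (4.24 to 5.19) and 3.89 (3.39 to 4.46). Across the other settings tried, the H19 ratio lay between 4.24 and 5.72 in the pigmented and between 3.78 and 4.29 in the albino library, and the Igf2 ratio between 2.25 and 2.49 and between 2.44 and 3.05.

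Plagl1 went the other way. It stood at 131.7 and 174.2 CPM in CMZ-like cells and at 290.5 and 312.8 in RPC-like cells, its highest class in both libraries. The ratios were 0.453 (0.429 to 0.479) and 0.557 (0.518 to 0.598). The albino ratio would not pass a fold of 2, and then no member was lower in both libraries.

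These 2 members higher of 9 tested in both libraries compare with 3.63% of 12333 genes called higher in both, and the 1 lower with 4.5% called lower. The median log2 ratio of the members tested was 0.01 in the pigmented library (10 members) and 0.32 in the albino (9), against -0.05 and -0.01 over all genes tested. The members thus did not shift together.

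The other members differed less between margin and progenitors. Mest, a paternally expressed member of the α/β-hydrolase family, stood at 489 and 456 CPM in CMZ-like cells against 386 and 364. Its ratios, 1.27 (1.22 to 1.31) and 1.25 (1.19 to 1.31), exceeded 1 beyond counting error and did not reach the fold set for a call. Peg3, a large zinc-finger protein, had ratios of 1.12 (1.05 to 1.2) and 1.39 (1.26 to 1.53). Ndn, a MAGE-family protein of postmitotic neurons, had ratios of 0.991 (0.932 to 1.05) and 0.853 (0.775 to 0.938). Snrpn, a component of spliceosomal ribonucleoprotein, had ratios of 0.986 (0.878 to 1.11) and 0.953 (0.801 to 1.13), with intervals that include 1 in both libraries.

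Meg3 and the 2 lowest members were less settled. Meg3 had ratios of 0.929 (0.767 to 1.12) and 0.687 (0.515 to 0.905). The albino ratio passed the call at 0.602 with cells thinned to equal depth, and the pigmented ratio turned above 1 under 5 other settings, to as much as 1.39 in cells with Xist and no Y-linked UMI. Peg10, a retrotransposon-derived gene, stood at 4.35 and 7.23 CPM in CMZ-like cells and at 4.52 and 4.40 in RPC-like cells. Its ratio was 0.962 (0.674 to 1.36) in the pigmented library and 1.64 (1.06 to 2.52) in the albino, from 39 UMIs in CMZ-like and 56 in RPC-like cells. Called in the albino library alone (5.39% of all genes were higher there), it was lost at a fold threshold of 2 and under 6 other settings, among them a minimum of 1000 genes per cell (1.36), thinned cells (1.41) and leaving out the cell with the most Peg10 UMIs (1.52). The pigmented ratio was 1.33 in cells with Xist and no Y-linked UMI. Dlk1, a transmembrane relative of the Notch ligands, was near 0 in both classes, with 8 and 16 UMIs in the pigmented and 8 and 6 in the albino library.

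**Figure D2:**
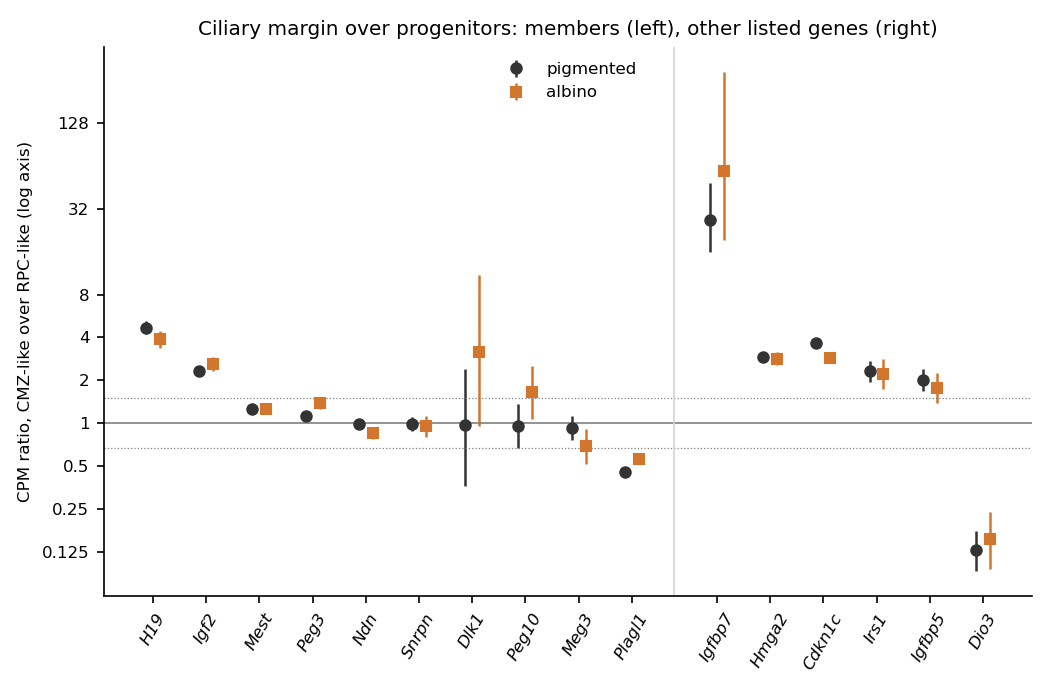
CPM ratio of CMZ-like over RPC-like cells on a log axis, with 95% intervals for counting error, for the members (left) and for listed genes described in the text (right), per library; dotted lines mark folds of 1.5 up and down, and the albino Dlk1 ratio rests on 14 UMIs. H19 and Igf2 lie above the upper line and Plagl1 below the lower line in both libraries.

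Medians of UMIs per cell went in the same directions as the ratios. The median CMZ-like cell held 1 UMI of Igf2 and 1 of H19 in each library, and the median RPC-like cell 0 of either. For Mest the medians were 7 and 6 UMIs in CMZ-like cells and 3 and 3 in RPC-like cells. For Plagl1 they were 1 and 2 against 3 and 3. The depth of the classes differed too, with medians of 14461.5 and 13934 UMIs in CMZ-like cells against 9733.5 and 10293 in RPC-like cells. The medians per gene are not scaled for depth, and the Mest gap is wider than its CPM ratios of 1.27 and 1.25.

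Thinning each cell to 5900 UMIs, which left out 582 pigmented and 396 albino cells, kept the orders of Igf2, H19 and Plagl1. Igf2 was then detected in 44.5% and 47.2% of CMZ-like cells and in 21.9% and 22.0% of RPC-like cells, against 71.4% and 74.6% and 33.9% and 32.9% unthinned. H19 was detected in 38.9% and 39.3% against 10.7% and 12.2%, where unthinned shares were 62.8% and 61.7% against 17.3% and 20.9%. Plagl1 was detected in 44.9% and 50.6% of CMZ-like and in 74.6% and 79.4% of RPC-like cells, against 64.7% and 72.3% and 87.4% and 90.2% unthinned. In RGC-like cells, deeper at medians of 14359 and 14475 UMIs, the thinned share for Igf2 was 5.14% and 3.84% and for H19 2.94% and 1.84%. Myeloid-like cells, at median depths of 7511 and 9579 UMIs, had no Igf2 UMI after thinning in 16 and 24 cells, which allows shares of cells with a UMI at that depth of up to 20.6% and 14.2% (exact bounds). Unthinned, they held 2 and 0 Igf2 UMIs, the 2 in 1 cell.

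**Figure D3:**
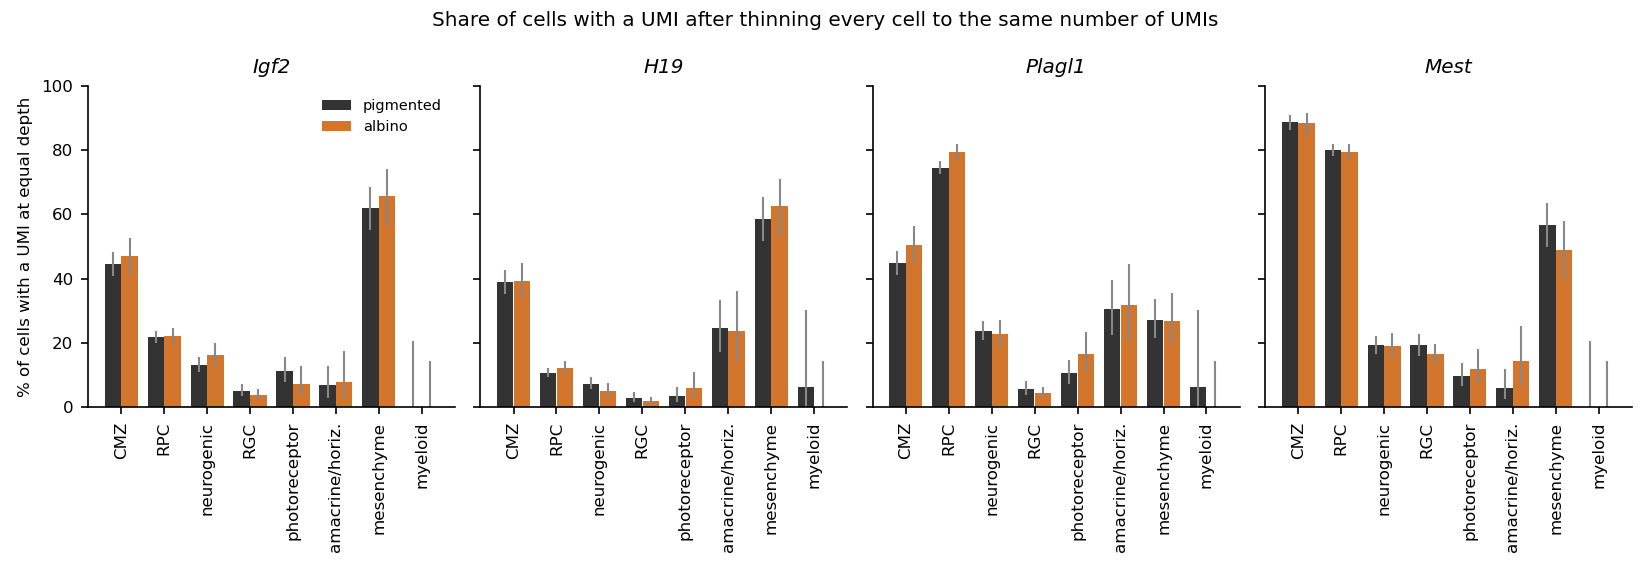
Share of cells with at least 1 UMI of Igf2, H19, Plagl1 or Mest after thinning every cell to 5900 UMIs, per class and library, with exact (Clopper-Pearson) 95% intervals. In CMZ-like cells Igf2 was detected in 44.5% and 47.2% of cells, above the RPC-like shares of 21.9% and 22.0%.

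Igf2 and H19 were not detected in the same cells to the same degree in every class. In thinned mesenchyme-like cells, Igf2 was found in 76.0% and 75.3% of cells with H19 and in 42.0% and 50% of cells without it. In RPC-like cells the shares were 33.7% and 29.3% with H19 and 20.5% and 21% without. In CMZ-like cells they lay closer, at 50% and 49.6% with H19 and 41.0% and 45.6% without. Cells of one class and library are not replicates, so these shares are a description.

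The 3 CMZ-like clusters were alike in Igf2 and H19. Igf2 lay between 103 and 131 CPM in the pigmented and between 106 and 133 in the albino library. H19 lay between 93.6 and 123 and between 96.4 and 125. Plagl1 varied more. It stood at 170 and 227 CPM in the cluster led by Wfdc1 and Aldh1a1, and at 116 and 148 and at 106 and 122 in the 2 with Gja1 and Otx1 among their leading genes. Each of these lay below the lowest Plagl1 level of an RPC-like cluster in the same library, 230 and 243 CPM.

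Among the 5 RPC-like clusters, the one led by Vax2os and Aldh1a3 had the highest Igf2 and H19 in both libraries. Igf2 stood there at 66.9 and 61.1 CPM, against 34.8 to 55.1 in the other 4 pigmented clusters and 33.0 to 53.2 in the albino. H19 stood at 37.7 and 42.0 CPM, against 16.1 to 23.8 and 21.4 to 25.3. The same cluster had the lowest Peg3, at 65.3 and 65.8 CPM, where the clusters led by histone genes and by Cenpf had 122 and 97.9 and 118 and 118. Another cluster with cell cycle genes, Ccnb2 and Cenpa, among its leading genes had Peg3 nearer to the lowest level than to either of these. The cluster led by Cyp26a1, a retinoic acid-degrading enzyme, had the highest Plagl1, 366 CPM in each library, and the highest Mest of the RPC-like clusters, 482 and 481 CPM.

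**Figure D4:**
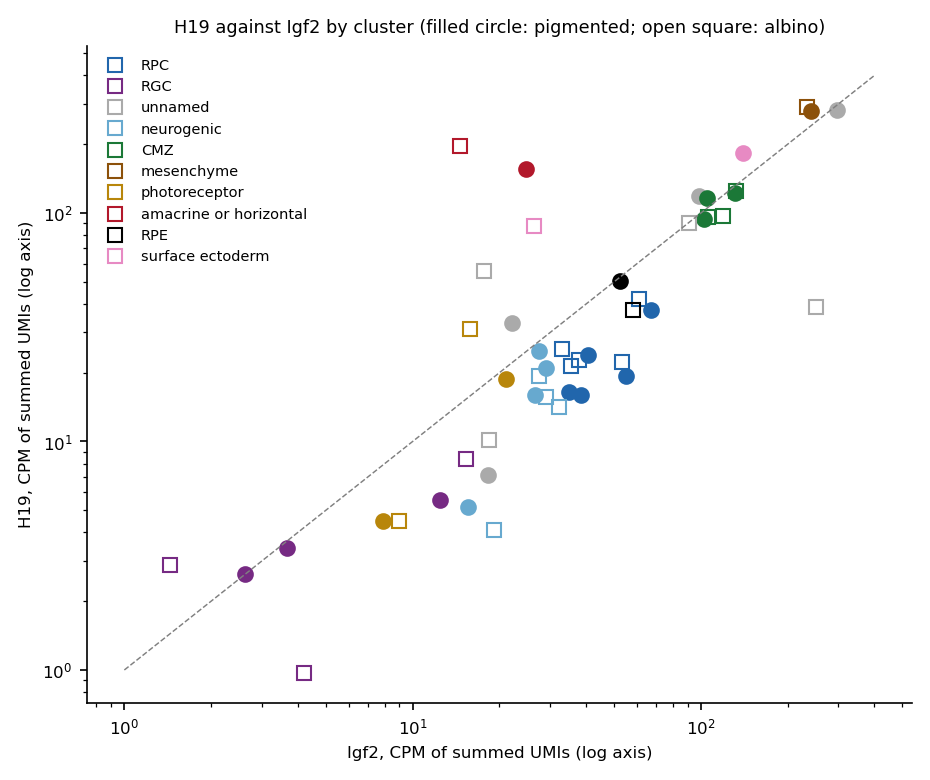
H19 against Igf2 level (CPM of summed UMIs, log axes) for each cluster in each library, coloured by class, with filled circles for the pigmented and open squares for the albino library, no error bars, and the myeloid-like cluster left out; the dashed line marks equal levels. The CMZ-like clusters lie near the line and the amacrine or horizontal-like cluster lies well above it, at 156 and 197 CPM of H19 against 24.6 and 14.5 of Igf2.

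Mesenchyme-like cells, which lie around the optic cup, held the highest Igf2, Dlk1, Meg3 and Peg10 of all named classes in both libraries, and the highest H19. For H19 the pigmented interval overlapped that of the 7 surface ectoderm-like cells. Against the retinal classes together, 6 of 10 members were called higher in both libraries (9.99% of all genes tested) and 2 lower (11.8%). The median log2 ratio of the members was 1.95 and 1.75, against -0.07 and -0.02 over all genes tested.

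Dlk1 was the most uneven member. Mesenchyme-like cells held 403 and 396 CPM of it, and retinal cells 0.928 and 0.888. The ratios were 435 (329 to 585) and 445 (313 to 656), and the albino ratio was 758 at a finer clustering. Meg3 stood at 380 and 423 CPM, with ratios of 14.7 (13.6 to 15.8) and 12.1 (11.1 to 13.3). Dlk1 and Meg3, neighbours on chromosome 12, were thus both highest in this class.

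H19 reached 280 and 291 CPM among the mesenchyme-like cells, with ratios over retinal cells of 7.0 (6.48 to 7.56) and 8.94 (8.06 to 9.91). Igf2 stood at 241 and 233 CPM, with ratios of 4.79 (4.42 to 5.18) and 5.68 (5.09 to 6.32). Peg3 stood at 225 and 229 CPM, with ratios of 3.09 and 3.79. Peg10 stood at 24.6 and 16.8 CPM, with ratios of 4.91 (3.79 to 6.31) and 2.90 (1.92 to 4.25). In cells with Xist and no Y-linked UMI, the pigmented Peg10 ratio was 11.9.

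Plagl1 and Snrpn were lower in mesenchyme-like than in retinal cells, with ratios of 0.448 and 0.419 and of 0.398 and 0.294. In pigmented cells with Xist and no Y-linked UMI, the Plagl1 ratio was 0.782 and the call was lost. Ndn (0.725 and 0.723) and Mest (0.874 and 0.821) were not called. The pigmented Mest ratio turned above 1 under 5 other settings, to as much as 1.29 at resolution 0.7, and the albino one reached 1.01 with called doublets kept.

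RNA of mesenchyme in the retinal classes was measured by 11 markers, which summed to 3177 and 3244 CPM in mesenchyme-like and to between 1.74 and 10.8 CPM in the retinal classes. At 100 UMIs of these markers, mesenchyme-like cells held 7.58 and 7.19 UMIs of Igf2 and CMZ-like cells 2049 and 2207. For Dlk1 the same figures were 12.7 and 12.2 in mesenchyme-like, 12.3 and 27.6 in CMZ-like and 6.50 and 5.13 in RPC-like cells. The Dlk1 figures of CMZ-like and RPC-like cells rest on 6 to 16 UMIs of Dlk1 each. Leaving out retinal cells with 2 or more mesenchyme marker UMIs changed no call of Igf2 or H19 between margin and progenitors. That choice left out only 49 pigmented and 19 albino cells, with 0.668% and 0.590% of CMZ-like cells among them. So few cells could hardly move these ratios, and mesenchyme RNA spread thinly over all cells was not tested.

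The linked pairs differed in balance between classes. H19 UMIs per Igf2 UMI numbered 1.16 (1.06 to 1.28) and 1.25 (1.10 to 1.42) in mesenchyme-like cells and 0.976 (0.903 to 1.05) and 0.877 (0.781 to 0.983) in CMZ-like cells. In RPC-like cells they numbered 0.484 (0.436 to 0.537) and 0.588 (0.513 to 0.674), below the margin in both libraries. Meg3 UMIs per Dlk1 UMI numbered 0.942 and 1.07 in mesenchyme-like cells and 45.3 in pigmented RGC-like cells. In albino RGC-like cells 800 Meg3 UMIs stood beside 1 of Dlk1.

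**Figure D5:**
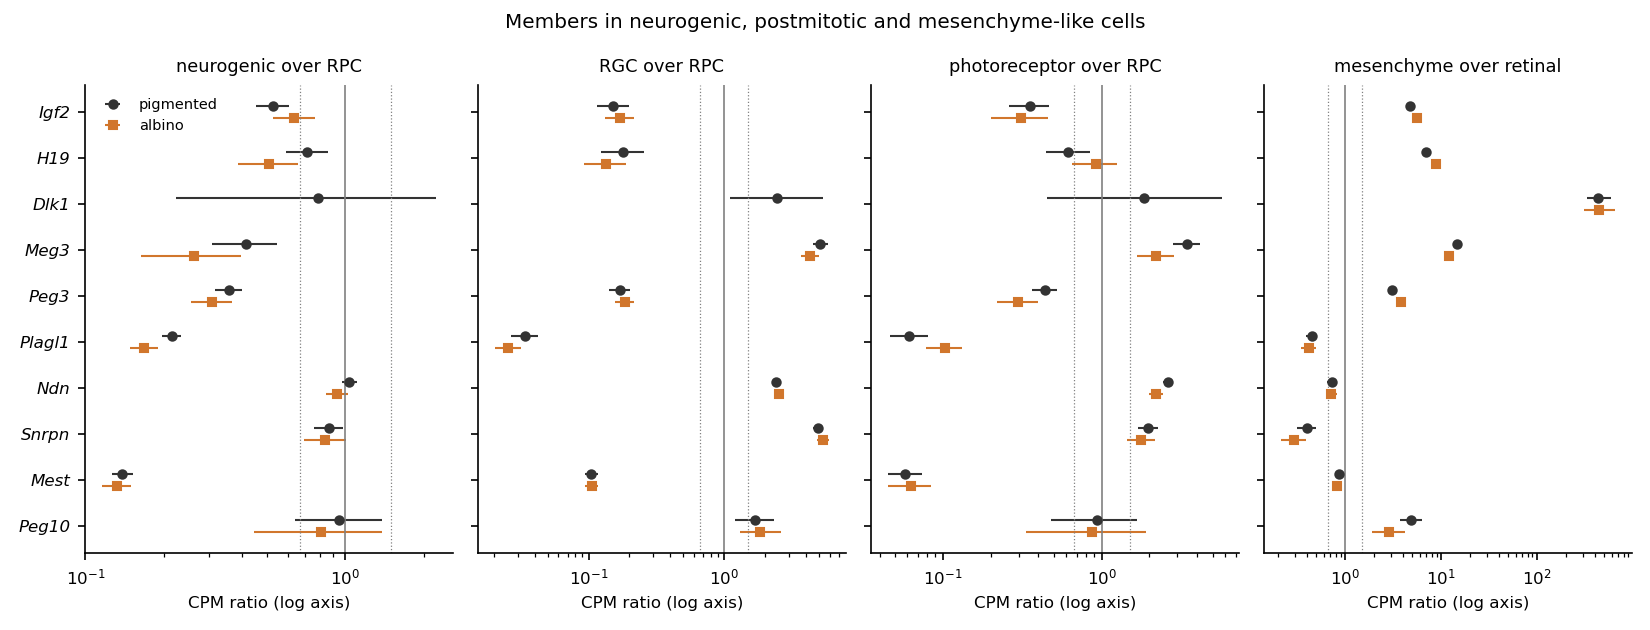
CPM ratios of the members in the other comparisons, on log axes with 95% intervals for counting error, per library: neurogenic-, RGC- and photoreceptor-like over RPC-like cells, and mesenchyme-like over retinal cells; dotted lines mark folds of 1.5, axes differ between panels, and ratios from under 20 UMIs are not drawn. Plagl1 and Mest lie below 1 in all 3 comparisons with RPC-like cells, and Meg3, Ndn and Snrpn above 1 for RGC- and photoreceptor-like cells.

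Neurogenic-like cells, named for genes of progenitors that give rise to neurons, had lower levels of 5 members than RPC-like cells in both libraries (14.5% of all genes) and higher levels of none (8.18%). Mest stood at 53.5 and 48.0 CPM, with ratios of 0.139 (0.126 to 0.152) and 0.132 (0.115 to 0.150). Plagl1 stood at 62.3 and 52.5 CPM, with ratios of 0.214 and 0.168. Peg3 had ratios of 0.356 and 0.307 and Igf2 of 0.525 and 0.637. Meg3 had ratios of 0.413 and 0.261, from 57 and 24 UMIs, 0.160 in pigmented cells with Xist and no Y-linked UMI and 0.159 in thinned albino cells. The albino Igf2 call was lost with every cell weighted equally (0.755). Plagl1 was uneven within the class, at 153 and 154 CPM in the cluster led by Cck and Gadd45g.

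RGC-like cells, whose axons form the optic nerve, split the members. Called higher than in RPC-like cells in both libraries were 4 (21.4% of all genes), and 5 were lower (29.1%). Snrpn stood at 191 and 197 CPM, its highest class, with ratios of 4.91 (4.52 to 5.34) and 5.34 (4.83 to 5.91). Meg3 stood at 77.3 and 77.1 CPM, with ratios of 5.11 (4.47 to 5.84) and 4.27 (3.68 to 4.96). Ndn stood at 320 and 325 CPM, with ratios of 2.41 and 2.53. Peg10, at 7.56 and 8.10 CPM, had ratios of 1.67 and 1.84, and its calls were lost with thinned cells (1.37 and 1.72).

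Plagl1 had the lowest ratio of RGC-like over RPC-like cells, 0.0340 (0.0270 to 0.0423) and 0.0256 (0.0203 to 0.0318), at 9.88 and 8.0 CPM. Mest had ratios of 0.104 and 0.105, Igf2 of 0.152 and 0.170, Peg3 of 0.169 and 0.184 and H19 of 0.181 and 0.133. With called doublets kept, the Plagl1 ratios were 0.0965 and 0.0580, the H19 ratios 0.379 and 0.301, and the pigmented Mest ratio 0.214, all still called lower. Of the 14 Dlk1 UMIs in pigmented RGC-like cells, 85.7% came from 1 cell.

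Within the RGC-like class, Snrpn and Meg3 were lowest in the cluster led by Ccer2 and Igfbpl1. Snrpn stood at 232 and 230 CPM in the cluster led by Sst and Sncg and at 296 and 289 in that led by Tbx5 and Crabp1, against 126 and 121. Meg3 stood at 98.8 and 96.8 and at 148 and 128 CPM, against 39.8 and 31.5. The order of the 3 clusters was the same for both genes in both libraries.

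Photoreceptor-like cells had higher Meg3, Ndn and Snrpn than RPC-like cells in both libraries (3 members, 16.2% of all genes) and lower Igf2, Peg3, Plagl1 and Mest (4 members, 14.9%). The Ndn ratios were 2.62 (2.44 to 2.81) and 2.20 (1.98 to 2.42), the Meg3 ratios 3.44 and 2.20, and the Snrpn ratios 1.96 and 1.78. The Mest ratios were 0.0580 and 0.0627 and the Plagl1 ratios 0.0615 and 0.103. With called doublets kept, the pigmented ratios were 0.123 for Mest and 0.107 for Plagl1. The pigmented Meg3 ratio was 2.13 in cells with Xist and no Y-linked UMI.

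Meg3 and Peg3 were concentrated in 1 of the 2 photoreceptor-like clusters, the one led by Gngt2 and Pdc, genes of phototransduction. Meg3 stood there at 116 and 105 CPM, against 26.0 and 18.7 in the cluster led by Neurod4 and Prdm1. Peg3 stood at 102 and 76.0 CPM, against 18.3 and 10.8. A class-wide level of these genes thus mixes clusters that differ severalfold. The cluster led by Neurod4 and Prdm1, with 227 pigmented and 119 albino cells, also had Ptf1a among its leading genes. Ptf1a is a marker of the amacrine or horizontal class, and the part of such cells in the photoreceptor-like levels was not tested.

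The amacrine or horizontal-like cells, 1 cluster led by Ptf1a and Prdm13, held H19 at 156 (134 to 181) and 197 (164 to 235) CPM, above every other retinal class. Igf2 stood at 24.6 and 14.5 CPM there, so that H19 UMIs per Igf2 UMI numbered 6.33 (4.2 to 9.89) and 13.6 (6.91 to 30.4). H19 was found in 27.1% and 32% of these cells and, after thinning, in 24.6% and 23.8%. It was uneven, since the 10% of cells with the most held 73.7% and 71.3% of its UMIs and the highest cell 11.7% and 13.1%. The mesenchyme markers summed to 7.30 and 3.23 CPM in this cluster, with 6 and 10 of the 11 at 0. Cldn5, a marker of endothelial cells, was also among the leading genes. The mean marker score was 3.09 for amacrine or horizontal and 0.301 for endothelial cells, the next class. The part of endothelial cells in the H19 level was not tested.

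Against RGC-like cells, 2 members were higher in the amacrine or horizontal-like cells in both libraries (8.64% of all genes). H19 had ratios of 36.6 (25.3 to 54.2) and 55.3 (38.0 to 82.2), and of 18.0 and 24.5 with called doublets kept. Plagl1 stood at 69.4 and 80.8 CPM, with ratios of 7.02 and 10.1, and of 2.66 and 4.46 with doublets kept. Snrpn was the 1 member called lower in both (6.21% of all genes), at 0.655 and 0.639, a call lost under 8 other settings. The Igf2 ratio of 3.31 in the pigmented library was 0.838 in cells with Xist and no Y-linked UMI.

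Smaller classes were measured with less precision. The 61 pigment epithelium-like cells held Mest at 469 and 341 CPM and Peg3 at 174 and 232, near the mesenchyme's Peg3 level in the albino library. Of the 10 Dlk1 UMIs in the albino pigment epithelium-like cells, 90% came from 1 cell. Surface ectoderm-like cells held Igf2 at 140 (74.3 to 239) and 26.4 (20.6 to 33.3) CPM. The albino ones were deep, at a median of 50184 UMIs, and 59.1% of them held 2 or more mesenchyme marker UMIs, whose part in these levels was not tested. Myeloid-like cells held between 0 and 3 UMIs of each member in each library.

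Between the libraries, the members' levels were close in the larger classes. In RPC-like cells no member passed the call in either direction (0.775% of all genes were called higher in the albino library and 1.02% lower). In CMZ-like cells 1 member, Peg10, was called higher in the albino library (1.35% of all genes) and 0 lower (1.57%). The Peg10 ratio was 1.66 (1.07 to 2.57), from 39 albino and 51 pigmented UMIs, and it fell short under 6 other settings, among them thinned cells (1.36).

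Smaller differences within the margin lay beyond counting error. Plagl1 was 1.32 (1.22 to 1.44) times its pigmented level in albino CMZ-like cells and Ndn 0.830 (0.754 to 0.914) times. Peg3 was 1.14 (1.04 to 1.25) times and Mest 0.932 (0.889 to 0.977) times its pigmented level. For Igf2 the ratio was 1.04 (0.949 to 1.15) and for H19 0.938 (0.848 to 1.04), intervals that include 1. One albino CMZ-like cell held 74 of the 940 Plagl1 UMIs of that class. No member passed in RGC-like (1.01% of all genes higher, 1.78% lower), neurogenic-like (0.814% and 1.78%) or mesenchyme-like cells (2.51% and 2.71%). The mesenchyme Mest ratio was 0.738 (0.646 to 0.840), which passed as lower under 5 other settings. In photoreceptor-like cells H19 (1.67) and Plagl1 (1.80) were called higher in the albino library (1.69% of all genes) and Peg3 (0.626) lower (1.99%). Of the 45 H19 UMIs of each library there, 1 cell held 33.3% in the albino and 24.4% in the pigmented library. In amacrine or horizontal-like cells Mest (2.32, from 17 and 13 UMIs) and Dlk1 (5.31, from 15 and 5 UMIs) were called higher (2% of all genes) and 0 lower (2.08%), and 46.7% of the albino Dlk1 UMIs came from 1 cell.

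Other imprinted genes were listed for comparison, 48 in all, of which 32 could be tested between margin and progenitors in both libraries. In both, 1 was called higher (3.63% of all genes) and 1 lower (4.5%), and the median log2 ratio was 0.00 and 0.09. Cdkn1c, a maternally expressed inhibitor of cyclin-dependent kinases, stood at 624 and 487 CPM in CMZ-like cells against 172 and 170 in RPC-like cells, ratios of 3.64 (3.50 to 3.79) and 2.86 (2.70 to 3.03). Its levels were higher still in mesenchyme-like (1025 and 979 CPM) and amacrine or horizontal-like cells (985 and 975). Dio3, which inactivates thyroid hormone and lies in the Dlk1 domain, stood at 3.58 and 4.08 CPM against 28.0 and 26.6, ratios of 0.128 (0.0913 to 0.175) and 0.153 (0.0949 to 0.236). Dlk1 itself was near 0 in both classes, and Meg3 was not called.

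Of 21 genes of the IGF pathway, 17 could be tested, 3 were called higher in CMZ-like cells in both libraries (3.63% of all genes) and 0 lower (4.5%), and the median log2 ratio was -0.05 and 0.02. Igfbp7, a secreted binding protein, had 207 UMIs in CMZ-like and 15 in RPC-like cells of the pigmented library and 75 and 3 in the albino. Its ratios were 26.8 (15.9 to 48.8) and 58.9 (19.4 to 292). Pigment epithelium-like cells held far more Igfbp7, 183 and 263 CPM against 17.6 and 13.9 in CMZ-like cells. It was found in 16.8% and 14.5% of CMZ-like cells. Irs1, an adaptor of the Igf1 and insulin receptors, had ratios of 2.30 (1.96 to 2.72) and 2.23 (1.75 to 2.84). Igfbp5, another binding protein, had ratios of 2.01 (1.69 to 2.39) and 1.76 (1.37 to 2.26). Its level in CMZ-like cells was 23.5 and 21.5 CPM. The retinal classes other than CMZ-like and RPC-like cells held more, from 85.0 and 90.2 CPM in RGC-like to 837 and 682 in amacrine or horizontal-like cells. Single cells held 20.7% of its albino CMZ-like UMIs and 14.2% and 21.9% of its RPC-like UMIs.

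The receptors differed less. Igf2r had ratios of 1.27 (1.10 to 1.48) and 1.60 (1.29 to 1.99), called in the albino library only, and the difference between libraries was not tested. Igf1r had ratios of 0.714 (0.661 to 0.771) and 0.913 (0.821 to 1.01). Hmga2, a chromatin protein of growing tissues, stood at 141 and 152 CPM in CMZ-like cells against 48.4 and 53.5, ratios of 2.92 and 2.84. It was listed apart from both lists.

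The genes most like each member in pattern were ranked by Pearson's r of log2(CPM + 10) over 28 points, among 9769 genes. These points were the named classes and unnamed clusters, small ones included, each entered once per library. The points share libraries and depth, and r is a description. Meg3 was most like Rian (0.96), a non-coding RNA of the same domain, which stood at 115 and 128 CPM in mesenchyme-like and at 19.6 and 22.8 in RGC-like cells. Plagl1 was most like Fgf15 (0.93), Sfrp2 (0.92) and Fzd5 (0.91), and Mest like Yap1 (0.94), Aldh1a3 (0.92) and Id3 (0.90). Igf2 was most like Plpp3 (0.92), Fzd1 (0.89) and Ppic (0.89), and H19 like Wdr86 (0.81), Hmga2 (0.75) and Igf2 (0.75). Dlk1 was most like Alx1 (0.94), Prrx2 (0.94) and Lum (0.93), genes of mesenchyme. Peg3 was most like Parva (0.91), Sdc2 (0.90) and Fbn2 (0.89), Ndn like Zfp428 (0.97), Ptov1 (0.96) and Bex2 (0.94), and Snrpn like Gng3, Cd24a and Chn1 (each 0.88). For Peg10 the highest values were 0.77 for Pls3, 0.73 for Brdt and 0.67 for Eea1.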

How the data were processed

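Single cells were measured with a 3′ droplet kit (v2 chemistry, per the labels' protocols). The authors' deposited matrices hold UMI counts per gene and barcode, not normalized. Per the file headers the software was cellranger 5.0.1. Cell Ranger 2.1.1 with mm10 is what the submitters' processing notes state, and which of the versions made these counts is unsettled. The gene annotation was not given. The lowest barcodes held 500 and 501 UMIs in the 6089 pigmented and 3676 albino barcodes.

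Cells with under 500 genes (134 and 110) or over 10% mitochondrial UMIs (188 and 136) were left out. Doublets were called with Scrublet in Scanpy 1.11.5. Its own thresholds called 168 pigmented and 6 albino cells, so a score of 0.25 was used in both after seeing this (142 cells, 2.41%, and 50 cells, 1.42%). Cells of both libraries were clustered together without batch correction (2000 variable genes without members, listed, mitochondrial, ribosomal protein and haemoglobin genes, 30 components, 15 neighbours, Leiden resolution 1, leidenalg 0.10.2). Clusters were named "-like" where their mean marker score led the next class by 0.3.

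UMIs were summed per class and library and divided by the class total. Intervals are exact: Poisson for levels, conditional binomial for ratios, Clopper-Pearson for shares (SciPy 1.17.1). With 1 library per group no test across samples was possible, and the intervals cover counting error only. The calling rule was tested only on simulated Poisson counts, the model behind the intervals, so that test says nothing of spread between cells. The members, marker lists and listed genes were chosen with earlier results of these data known. The text names all 10 members, the genes of the other imprinted and IGF lists called the same way in both libraries, and the 3 genes most like each member among those with at least 200 UMIs in each library. Igf2r, Igf1r, Hmga2 and Rian were named after their values were seen. Alternatives changed the clustering genes, resolution, naming margin, cell filters, doublets, weights, scaling, depth, sex of cells, single cells, minimum count and fold. No sample was left out.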

Additional observations from a re-analysis of the deposited data

Results flagged for a closer look

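Peg10 lay on opposite sides of 1 in the libraries when CMZ-like cells were set against RPC-like cells. The ratio was 0.962 in the pigmented library (51 UMIs in CMZ-like and 103 in RPC-like cells) and 1.64 in the albino (39 and 56 UMIs). In cells with Xist and no Y-linked UMI the pigmented ratio was 1.33, on the albino side, and with every cell weighted equally it was 1.10. The difference between the libraries was not tested, and with 1 library per group it cannot be told apart from strain, sex makeup or the library.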

How the results depend on the processing

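No paired analysis was possible because each group is 1 library and its replicate number is only a name. Between margin and progenitors, 2 members were higher and 1 lower in both libraries under all alternatives tried, except that 0 were lower at a fold of 2. The count of 6 members higher in mesenchyme-like cells and of 0 differing between libraries in RPC-like cells was the same under all of them. The other counts listed here moved by more than 1.5-fold or to or from 0, and the median listed left its counting interval. Smaller changes are not listed, such as the RGC-like Peg10 calls lost with thinning and the neurogenic-like albino Igf2 call lost with equal weights. Where not shown by the alternative itself, the cause was not tested. The albino median log2 ratio of 0.32 was 0.24 with a minimum of 1000 genes per cell and 0.40 with no minimum count. Members lower in mesenchyme went from 2 to 1 in cells with Xist and no Y-linked UMI, a choice that left out 4064 pigmented and 136 albino cells. The 1 member differing between libraries in CMZ-like cells became 0 with a minimum of 1000 genes, equal weights, thinning, Xist-only cells, without the top cell and at a fold of 2. The 1 member lower in amacrine or horizontal-like than in RGC-like cells became 0 with class markers out of the clustering, at resolution 1.5, with equal weights, with another total, with thinning, in Xist-only cells and at a fold of 2. It became 2 with Scrublet's own thresholds or without the top cell, and 3 with ratios centred on the median. The other imprinted genes higher went from 1 to 2 in Xist-only cells, and those lower from 1 to 2 with class markers or cell cycle genes out of the clustering, at resolutions 0.7 and 1.5 and with thinning, and to 3 in Xist-only cells. The IGF genes lower went from 0 to 1 with class markers out. Igf2 in pigmented amacrine or horizontal-like over RGC-like cells turned from 3.31 to 0.838 in Xist-only cells, the 1 called ratio that changed direction. Of the other alternative values of single ratios, 198 fell outside the main interval and 2481 inside it. Ratios that were not called crossed 1 in 87 values, 21 of them outside the main interval, among them Mest in pigmented mesenchyme-like cells (0.874 to 1.29 at resolution 0.7), Meg3 between pigmented margin and progenitors (0.929 to 1.39 in Xist-only cells) and Snrpn in pigmented neurogenic-like over RPC-like cells (0.863 to 1.27 with doublets kept). Dlk1 and Peg10 ratios between retinal classes rest on 52 and 32 and on 280 and 209 UMIs over all retinal cells, so small differences were not detectable at this depth. Scrublet's own thresholds and all alternatives for the neurogenic, RGC, photoreceptor, amacrine, lower-in-mesenchyme and listed-gene counts were added after seeing the data.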
